A study of Brachypodium distachyon with 11 samples.

Results

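The dawn and morning peak lists of ELF3 in Brachypodium distachyon were compared: 2 lists at ZT4 and 2 lists at ZT0, where ZT is zeitgeber time, counted in hours from lights on. Each time had 1 list in long days (LD) and 1 in short days (SD), out of 10 peak lists in a series of 11 samples. The question was which chromatin regions, and which neighbouring genes, were listed at one of these times in both photoperiods and at the other time in neither. All 4 groups of seedlings were ELF3_OX plants, in which the UBIQUITIN promoter drives ELF3 joined to GFP and FLAG tags in the accession Bd21-3. They were grown for 2 weeks at 20 °C on agar plates and, by their labels, differed only in photoperiod and harvest time. The PHYC and PRR37 lists read later came, by their labels, from other lines of the same age and temperature, phyC_OX and PRR37_OX. Each sample pooled many seedlings, was fixed with formaldehyde and was precipitated with an anti-FLAG gel, and peaks are the places where this DNA was enriched. The group ELF3_OX at ZT4 comprised 1 LD and 1 SD sample, and the group ELF3_OX at ZT0 also comprised 1 LD and 1 SD sample. The labels call each sample single, so photoperiod served as the pair and each condition has no replicate of its own. The promoter is constitutive, so the tagged protein was not made under the control of the ELF3 promoter. Its amount need not be constant. From anti-FLAG blots, the paper reports that ELF3 protein builds up during the night and falls quickly in light, with lower levels in LD. The part of protein amount in these lists was not tested. A ChIP of plants without the tag and a peak list of the input sample were not analysed here, and the depth of each library is unknown.

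ELF3 is a scaffold protein of the evening complex of the plant circadian clock, which it forms with ELF4 and the DNA-binding protein LUX, as known best from Arabidopsis. The complex binds promoters of clock, light and growth genes and represses them, mainly in the evening and night. In grasses, ELF3 also delays flowering in unfavourable day lengths, and the photoreceptor PHYC and the pseudo-response regulator PRR37 act in the same response.

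Merging every deposited peak of the 4 lists by an overlap of at least 1 bp gave 28477 regions. Of these, 777 were listed in both ZT4 lists and in no ZT0 list, which is 2.73% of all regions. Another 1113 (3.91%) were listed in both ZT0 lists and in no ZT4 list. These 777 and 1113 are called ZT4-only and ZT0-only regions here. The ZT0-only count was the larger, yet both were of the size of patterns that cut across time. The LD ZT4 and SD ZT0 lists alone shared 865 regions, and the SD ZT4 and LD ZT0 lists alone shared 750. Both LD lists without an SD list held 1343 regions, and both SD lists without an LD list held 817. Regions present in all 4 lists numbered 5445 (19.1%).

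**Figure D1:**
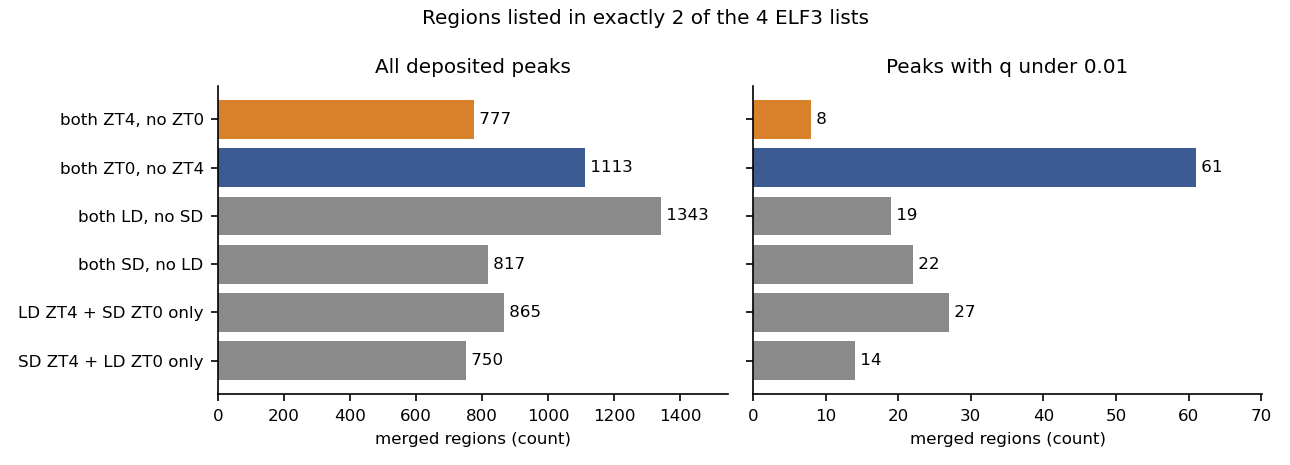
Merged regions listed in exactly 2 of the 4 ELF3 lists, by pattern, for all deposited peaks (left) and for peaks with q under 0.01 (right); bars are counts of regions. The ZT4-only bar (777) lies within the range of the grey patterns on the left, and the ZT0-only bar (61) is the longest on the right.

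By base pairs, the lists did not group by time. The Jaccard index, the shared length over the joint length, was 0.338 between the ZT4 lists and 0.348 between the ZT0 lists. It was 0.374 between LD ZT4 and LD ZT0, 0.328 between SD ZT4 and SD ZT0, and 0.335 and 0.332 for the pairs that shared neither time nor photoperiod. The list of LD ZT4 thus overlapped more with the LD list of the other time than with the SD list of its own.

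The deposited lists were slightly shorter at ZT4. They held 14884 peaks in LD and 13666 in SD at ZT4, against 15577 in LD and 14823 in SD at ZT0. The log2 ratio of ZT4 over ZT0 was -0.07 in LD and -0.12 in SD, a mean of -0.09 ± 0.04 (SD, n = 2 pairs). An exact two-sided sign-flip permutation gave p = 0.5, the smallest value that 2 pairs allow. The gap was wider among strong peaks. The q is the p-value adjusted for multiple testing, as deposited. At q under 0.01 there were 237 peaks in LD and 217 in SD at ZT4, against 322 in LD and 490 in SD at ZT0. The mean log2 ratio of these counts was -0.81 ± 0.52 (SD, n = 2 pairs), again with an exact p of 0.5. Whether sequencing depth moved with these lengths was not tested, because the lists do not carry it.

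The regions of 1 time only were weak peaks. The fold enrichment is the authors' ratio of ChIP signal over local background at a peak, and the lower of the 2 folds of a region measures how strong it was in both photoperiods. That lower fold had a median of 2.01 (quartiles 1.84 and 2.2) in the ZT4-only regions and of 2.07 (quartiles 1.88 and 2.29) in the ZT0-only regions. The highest lower fold was 3.07 among ZT4-only regions and 4.82 among ZT0-only regions. In regions of all 4 lists the lowest of the 4 folds still had a median of 2.37. A high fold in exactly 2 lists was not limited to regions of 1 time, since 1 region of the LD ZT4 and SD ZT0 pattern had a lower fold of 10.6. No ZT4-only region reached q under 0.01 in any list, whereas 9 of the 1113 ZT0-only regions did so in at least 1. Among the 3775 regions of the other patterns of 2 lists 6 did so, and among all 28477 merged regions 661. A p under 0.001 in both lists was found for 6 of the 777 ZT4-only and 33 of the 1113 ZT0-only regions. It was found for 57 of the 3775 regions of the other patterns.

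Strong regions were almost always shared by both times. Among the 190 regions whose highest fold in any list was 5 or more, 182 (95.8%) were in all 4 lists, 0 were ZT4-only and 1 was ZT0-only. Between folds of 3 and 3.5, 63.0% of 2379 regions were in all 4 lists, 18 were ZT4-only and 69 were ZT0-only. In the weakest bin, under 2, the regions divided evenly, with 103 ZT4-only and 105 ZT0-only among 6530. The excess of ZT0-only regions thus lay at folds of 2 and above. The bins use the same folds that placed peaks in the lists, so they are a description and no test was made.

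**Figure D2:**
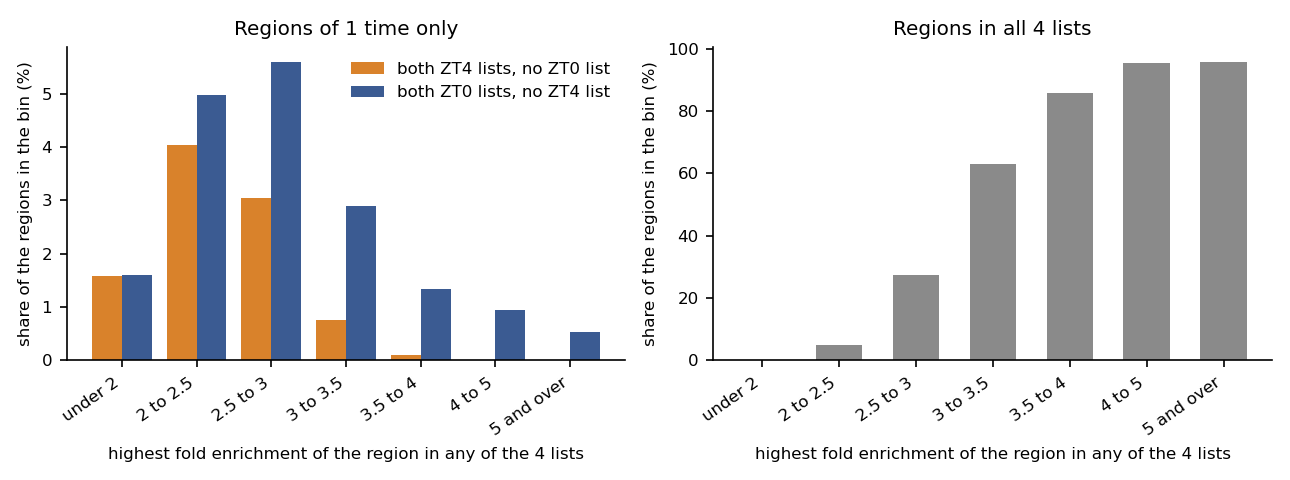
Share of the merged regions in each bin of highest fold enrichment that were listed at 1 time only (left, ZT4-only beside ZT0-only) or in all 4 lists (right); bars are percentages of the regions in the bin. ZT4-only regions reach 0.096% in the bin of folds from 3.5 to 4 and are absent above it, while the share in all 4 lists climbs to 95.8%.

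At q under 0.01 the 4 lists merged into 662 regions, of which 8 (1.21%) passed in both ZT4 lists and no ZT0 list and 61 (9.21%) passed in both ZT0 lists and no ZT4 list. Here the ZT0 count was the largest of the patterns of 2 lists, and the 4 patterns not of 1 time held between 14 and 27 regions. The excess was not seen when each list was cut to its 217 strongest peaks by p-value, the length of the shortest list at that q. Of 429 merged regions, the counts were then 22 (5.13%) for ZT4 and 17 (3.96%) for ZT0. That alternative was chosen after seeing the data. With the 5000 strongest peaks of each list the ZT0 count was slightly the larger, at 307 (3.3%) for ZT4 and 335 (3.6%) for ZT0 of 9300 regions. Nearly all regions of the q comparison were present at the other time as weaker peaks: 8 of 8 of the ZT4 regions had a deposited peak in both ZT0 lists, and 59 of 61 of the ZT0 regions had one in both ZT4 lists.

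The folds of the 61 regions past q under 0.01 at ZT0 only had medians of 3.97 in LD and 3.47 in SD at ZT4, against 4.56 in LD and 4.5 in SD at ZT0. The ZT4 medians leave out 2 regions with no peak there. In 54 of the 61, both ZT0 folds lay above both ZT4 folds, where the 2 regions with no peak at ZT4 are not counted. Over the 5445 regions of all 4 lists the same order held for 24.8%. For the 8 regions past q under 0.01 at ZT4 only, the medians were 4.25 in LD and 4.10 in SD at ZT4, against 3.58 in LD and 3.75 in SD at ZT0, and all 8 had both ZT4 folds above both ZT0 folds, an order found in 10.1% of the 5445. The q-values chose these regions, so the differences are a description. The 2 sets thus differed from the other time by shifts in strength and, apart from 2 regions, not by presence.

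Those 2 regions, absent from both ZT4 lists as deposited and past q under 0.01 in both ZT0 lists, were listed in other libraries too. The stronger lay on chromosome 4 at 1840880 to 1841350, in the coordinates of the deposited lists, 228 bp from LOC112268741, annotated as a long non-coding RNA gene. Its fold was 4.82 in LD and 5.27 in SD at ZT0, with −log10 q of 4.55 and 6.51, and neither ZT4 list had a peak there. It was also listed for ELF3 in constant light (LL) at ZT0 (3.45-fold), in LD at ZT20 (2.69-fold) and in SD at ZT20 (4.12-fold, −log10 q of 2.42), and in neither the PHYC lists nor the PRR37 list. A second ZT0-only region lay 467 bp away, at 1839351 to 1840412 on the same chromosome, 1282 bp from the protein-coding gene LOC100834249. It had folds of 4.0 in LD and 4.92 in SD at ZT0, and its −log10 q of 1.70 in LD fell short of the threshold. This stretch was therefore listed at ZT0 on both sides of a short gap and at ZT4 in neither photoperiod.

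The other region of the pair was on chromosome 3 at 54161482 to 54161829, inside the protein-coding gene LOC100821815. Its fold was 4.8 in LD and 4.04 in SD at ZT0, with −log10 q of 3.56 and 2.25, and no ZT4 list had a peak. All 6 other lists of the series had a deposited peak there, including the PRR37 list at ZT4 (3.56-fold). Among the 10 lists only the ELF3 lists of ZT4 lacked it, which is a statement on listing at the deposited threshold.

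The next ZT0-only regions by lower fold included 1 with no annotated gene within 2 kb, on chromosome 2 at 3821580 to 3822232, with folds of 3.79 in LD and 3.53 in SD at ZT0. A region overlapping the long non-coding RNA gene LOC104584580 had 3.53 in LD and 3.56 in SD. One 58 bp from the protein-coding gene LOC100826176 had 3.45 in LD and 3.48 in SD. The folds of these 3 were alike in both photoperiods. The remaining 4 of the 10 strongest lay near LOC104583625, LOC100830670 and the neighbours LOC100824084 and LOC100824393, or away from any gene, with folds between 3.24 and 3.43 in the LD list. These 10 regions had widths from 236 to 1062 bp. The RefSeq table used here gives these loci a gene type and no product name, so no role is stated for them.

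The 10 strongest ZT4-only regions were lower and narrower. Their folds ran between 2.71 and 3.47 in LD and between 2.73 and 3.48 in SD at ZT4, and their widths between 203 and 520 bp. The strongest, on chromosome 2 at 53141412 to 53141656, had no annotated gene within 2 kb, with 3.07 in LD and 3.25 in SD at ZT4. It was also listed for ELF3 in LL and at ZT20 in both photoperiods, so its absence was limited to the ZT0 lists of LD and SD among the ELF3 lists. The second, on chromosome 5 at 24668583 to 24668821, lay inside the protein-coding gene LOC100838154 and had 3.47 in LD and 3.0 in SD. The third, on chromosome 2 at 14359973 to 14360452, overlapped an end of LOC100841831, with 2.99 in LD and 3.48 in SD. The fourth overlapped an end of LOC100837877, with 3.07 in LD and 2.88 in SD. All of these genes are protein-coding. None of the 10 reached a −log10 q above 0.97, so these are candidates at a loose threshold. A region near the tRNA gene TRNAR-ACG, 18 bp away, had 2.85 in LD and 3.11 in SD. Regions inside LOC100841477, LOC100844819 and LOC100827783 also belonged to the 10, and 9 of the 10 had a gene within 2 kb.

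**Figure D3:**
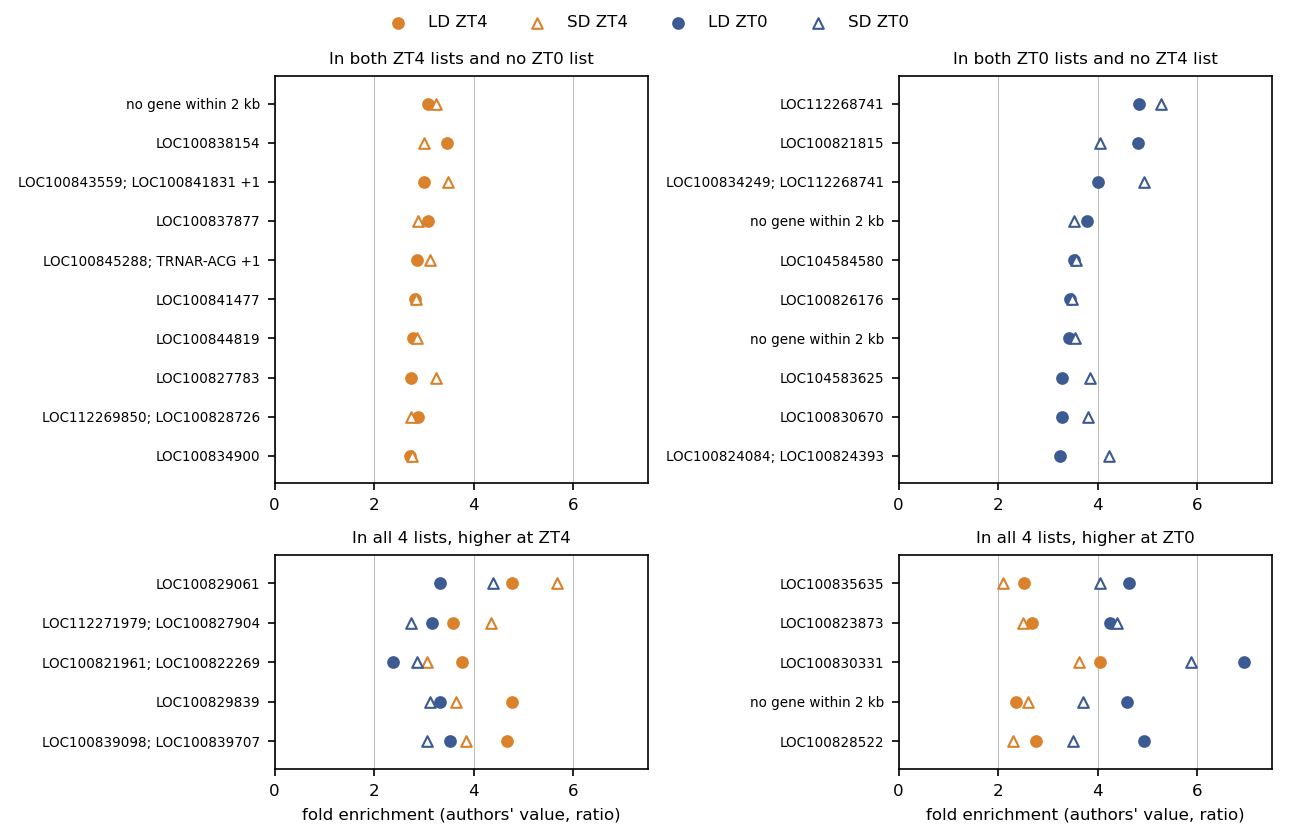
Fold enrichment (authors' ratio) of the named regions in the 4 lists, each row a region labelled by the genes within 2 kb; filled circles are LD and open triangles SD, orange ZT4 and blue ZT0. Rows of the upper panels have no mark for the other time because the lists of that time held no peak there; the ZT4-only marks stay at or below 3.48 and the ZT0-only marks reach 5.27.

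Listing in the 6 libraries that the classes did not use was then read at the regions. In the LL list of ELF3 at ZT0, 43.0% of ZT4-only regions were listed (95% Wilson interval 39.5 to 46.5) and 51.0% of ZT0-only regions (48.1 to 54.0), a difference of -8.05 percentage points (95% Newcombe interval -12.6 to -3.47). All merged regions gave 47.5%, between the classes. Regions of both LD lists and no SD list gave 60.2%, and those of both SD lists and no LD list 37.5%. Listing in LL thus differed more between these photoperiod patterns than between the time classes. The difference between the time classes was smaller among stronger regions. Where the lower fold was at or above the median of both classes, 55.6% of 340 ZT4-only and 56.4% of 606 ZT0-only regions were listed in LL. All intervals of this kind cover counting error only, and regions are not replicates of a condition. The LL list is 1 library, so a difference between times of day in general was not tested with it.

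The ELF3 lists of ZT20 showed no such gap. In LD at ZT20, 40.9% of ZT4-only and 39.9% of ZT0-only regions were listed, and in SD at ZT20, 43.8% of each. All merged regions gave 42.9% and 43.9%. The intervals of the 2 differences ran from -3.44 to 5.54 and from -4.52 to 4.55 percentage points.

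The largest gaps were in the lists of the other proteins, from phyC_OX and PRR37_OX seedlings. In the PRR37 list, taken in LD at ZT4, 22.8% of ZT4-only and 42.2% of ZT0-only regions were listed, a difference of -19.4 points (-23.5 to -15.2), beside 35.6% of all merged regions. The PHYC lists, both in LD at ZT20, gave 30.6% and 22.0% of ZT4-only regions, against 39.9% and 38.4% of ZT0-only regions, differences of -9.26 (-13.5 to -4.89) and -16.4 (-20.4 to -12.2) points. All merged regions gave 38.8% and 33.5%, so the first PHYC library listed ZT0-only regions at about the share of all regions. The gap in the PRR37 list was also present among the regions with the lowest folds, the lowest of 4 equal bins of the lower fold, with 15.8% of ZT4-only and 42.6% of ZT0-only regions listed. Although PRR37 was sampled at ZT4, its list thus shared fewer regions with ELF3 at ZT4 only than with ELF3 at ZT0 only. That list is a single library of mostly weak peaks. Only 34 of its 12933 peaks reached q under 0.01, and 95.5% had a q of 1.

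The same contrast appeared between the patterns that mix the times. Regions listed in LD ZT4 and SD ZT0 alone were in the PRR37 list in 22.3% of cases, and those in SD ZT4 and LD ZT0 alone in 38.9%. For the second PHYC library these shares were 17.8% and 38.4%. Among these 4 patterns the shares were low wherever the LD ZT4 list held a region and the LD ZT0 list did not, whichever SD list was joined to it. The part of the LD ZT4 and LD ZT0 libraries in these gaps was not tested further.

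**Figure D4:**
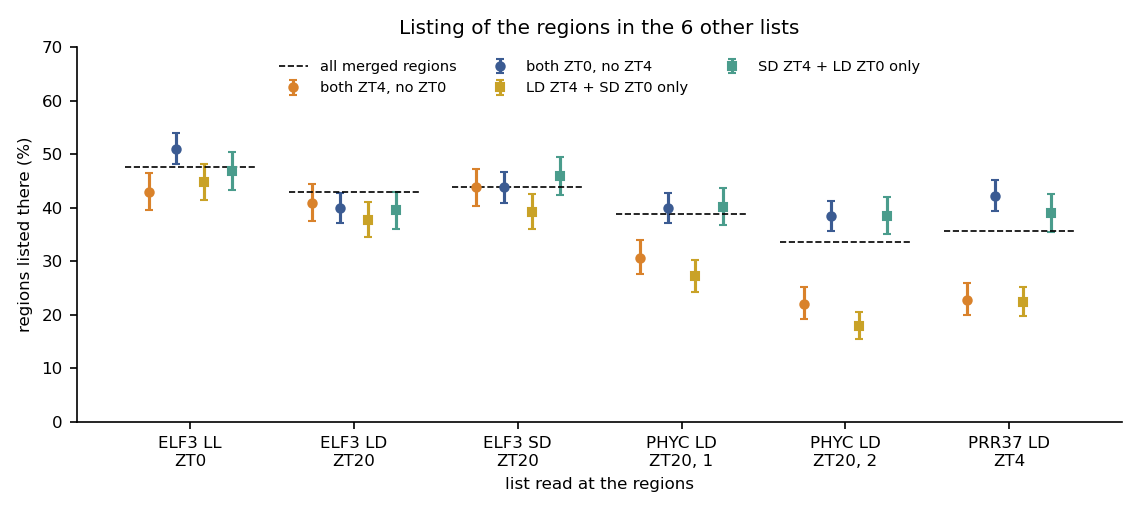
Share of regions listed in each of the 6 other lists (percent, with 95% Wilson intervals) for ZT4-only (orange circles), ZT0-only (blue circles) and the 2 mixed patterns (squares); dashed lines give all merged regions. In the PRR37 and PHYC columns ZT4-only regions sit beside the LD ZT4 and SD ZT0 pattern, and ZT0-only regions beside the SD ZT4 and LD ZT0 pattern.

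Position relative to genes differed modestly. A summit no farther than 500 bp from either end of a protein-coding gene was found in 38.0% of ZT4-only and 44.7% of ZT0-only regions, against 43.4% of all merged regions and 60.3% of regions in all 4 lists. It lay inside a protein-coding gene and farther from its ends in 24.8% of ZT4-only and 15.4% of ZT0-only regions, against 20.0% overall. The patterns that mix the times showed the same split. Regions of LD ZT4 and SD ZT0 alone had 35.8% near an end and 23.0% inside, and those of SD ZT4 and LD ZT0 alone had 47.3% and 15.6%. The contrast was thus not limited to the time classes. Median widths were 285 bp for ZT4-only and 305 bp for ZT0-only regions. ZT0-only regions more often had another region of their class within 5 kb, 132 of 1113 (11.9%), than ZT4-only regions, 45 of 777 (5.79%). The mixed patterns gave 2.31% and 4.0%, and the 2 photoperiod patterns 7.59% and 4.41%. The classes differ in size, which moves this share, and no test was made.

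Genes were taken as listed when a peak overlapped the gene body extended by 2 kb. Of 31197 annotated genes, 529 (1.7%) were listed in both ZT4 lists and no ZT0 list, and 795 (2.55%) in both ZT0 lists and no ZT4 list, while 7181 were in all 4 lists. Many genes near a region of 1 time only were not among the 529 or 795 genes of that time. They were 564 of the 931 genes near a ZT4-only region and 760 of the 1331 genes near a ZT0-only region. Such a gene had a peak in reach at the other time, or was reached by the peak of only 1 photoperiod. These cases were not counted apart, and each single list held between 39.9% and 43.8% of all genes. Protein-coding genes followed all genes, with 1.7% at ZT4 only and 2.6% at ZT0 only, and long non-coding RNA genes gave 1.75% and 2.35%. Among pseudogenes there were 28 of 1312 (2.13%) at ZT4 only and 18 (1.37%) at ZT0 only.

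CBF genes encode AP2-type transcription factors that switch on cold-response genes, and 5 of them are named in the annotation, in 1 stretch of chromosome 4. Each ZT4 list held 2 of the 5, whereas each ZT0 list held all 5. By comparison, 42.3% and 39.9% of all genes were in the LD and SD lists at ZT4, and 43.8% and 42.4% at ZT0. CBF2 and CBF5 were ZT0-only, which is 2 of 5 beside the 2.55% of all genes. CBF2 had folds of 2.51 in LD and 1.85 in SD at ZT0, from a region at 40871401 to 40871970 on chromosome 4 that also lies within 2 kb of CBF3. CBF5 had 1.81 in LD and 1.92 in SD at ZT0, from 2 separate peaks, so no ZT0-only region stood behind it. Apart from the LD value of CBF2, these folds were below the median fold of their lists, 2.36 in LD and 2.38 in SD at ZT0.

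CBF3 was listed at 1.88-fold in LD at ZT4, with no peak in SD at ZT4, against 2.51 in LD and 2.17 in SD at ZT0. CBF4 had no peak in LD and 2.5-fold in SD at ZT4, against 2.81 in LD and 3.05 in SD at ZT0. CBF7 was in all 4 lists, with 2.1 in LD and 1.92 in SD at ZT4, against 2.48 in LD and 2.05 in SD at ZT0. Where a fold was listed at both times in the same photoperiod, the one at ZT0 was the higher, although the LD value of CBF3 and the SD value of CBF7 at ZT0 come from other peaks than those listed at ZT4. The genes are neighbours, and CBF2 and CBF3 share a peak, so they are not 5 separate observations. The highest −log10 q at any of them was 0.53. Other libraries also held most of the 5: the ELF3 lists held 5 in SD at ZT20, 3 in LD at ZT20 and 4 in LL, the PHYC lists 4 and 5, and the PRR37 list at ZT4 all 5.

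Small nucleolar RNA (snoRNA) genes, whose products guide chemical modification of ribosomal RNA, were counted next: 1 of 299 (0.334%) was ZT4-only and 22 (7.36%) were ZT0-only, beside 1.7% and 2.55% of all genes. The snoRNA genes lie in clusters that share peaks, and the 22 fell into 8 clusters on 5 chromosomes, the largest with 6 genes. The count of 22 therefore stands for 8 places, where all 299 snoRNA genes form 127 clusters by the same rule. The largest cluster, 6 genes on chromosome 2 that include LOC112271211, had 2.12 in LD and 2.01 in SD at ZT0. It was also in the PRR37 list at ZT4, at 2.75-fold, and in no ELF3 list of LL or ZT20. The highest lower fold belonged to LOC112269068 on chromosome 4, with 3.11 in LD and 2.72 in SD at ZT0. A cluster on chromosome 1 with LOC112270333, LOC112270330, LOC112270226 and LOC112270367 had 2.29 in LD and 2.55 in SD at ZT0 from the same peaks. At ZT4 the lone gene was LOC112272104, with 1.84 in LD and 1.77 in SD.

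MicroRNA genes were closer to all genes, with 4 of 310 (1.29%) ZT4-only and 5 (1.61%) ZT0-only. MIR5183 had 3.25 in LD and 2.73 in SD at ZT0. MIR408, whose product acts on copper protein messages in Arabidopsis, had 2.99 in LD and 1.99 in SD at ZT0. MIR5185C had 2.46 in LD and 2.36 in SD at ZT0, and MIR9483A 2.28 in LD and 2.03 in SD at ZT0. No ZT4 list had a peak at these 4. At ZT4 only, MIR7770 had 2.42 in LD and 2.04 in SD, and MIR7710 had 1.84 in LD and 1.97 in SD at ZT4. MIR845 had 1.84 in LD and 1.77 in SD from a peak that it shares with the snoRNA gene LOC112272104, and MIR5181D had 1.65 in each photoperiod at ZT4.

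Small nuclear RNA genes, which serve splicing, had 2 of 86 (2.33%) ZT4-only and 4 (4.65%) ZT0-only. At ZT4, LOC112272144 had 2.29 in LD and 2.12 in SD, and LOC112270338 had 2.4 in LD and 1.72 in SD. At ZT0, LOC112272081 had 2.34 in LD and 2.21 in SD, the other 3 were LOC112270347, LOC112270342 and LOC112271225, and their folds ran between 1.51 and 2.37. No fold of the 6 was above 2.4, and the counts are too small to set beside each other. Transfer RNA genes gave 7 of 528 (1.33%) at ZT4 only and 11 (2.08%) at ZT0 only.

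The other named families had 0 genes of either class. VRT-2, a MADS-box gene of the SVP type, was in all 4 lists, with 3.53 in LD and 2.68 in SD at ZT4, against 2.81 in LD and 3.90 in SD at ZT0. Its fold at ZT4 was the higher in LD and the lower in SD. MADS2 had 2.83 in LD and no peak in SD at ZT4, against 2.21 in LD and 2.55 in SD at ZT0. Of 9 MAP kinase and MAP kinase kinase genes 4 were in all 4 lists, as were 3 of 7 secondary wall NAC genes and 2 of 5 nucleoside diphosphate kinase genes. Of all annotated genes, 23% were in all 4 lists. SWN5, a secondary wall NAC factor, had 2.72 in LD and 2.97 in SD at ZT4, against 3.55 in LD and 3.67 in SD at ZT0, so both ZT0 folds were above both ZT4 folds. Of the 10 genes of these families in all 4 lists, that order held for 4 and the opposite order for 0. Over the 5445 regions of all 4 lists these orders held for 24.8% and 10.1%, and 10 genes are too few to set against those shares. MPK6, a MAP kinase of stress signalling in Arabidopsis, was another of the 4, with 2.38 in LD and 2.29 in SD at ZT4, against 3.02 in LD and 2.48 in SD at ZT0. MPK3, of the same family, was slightly higher at ZT4 in each photoperiod, with 1.94 in LD and 2.14 in SD at ZT4, against 1.89 in LD and 2.05 in SD at ZT0.

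In the 5445 regions of all 4 lists, strength itself was compared. Folds were put on a log2 scale and centred on the median of each list. The median folds before centring were 2.73 in LD and 2.64 in SD at ZT4, against 2.79 in LD and 2.81 in SD at ZT0. With limma and photoperiod as a block, 0 of 5445 regions (0%) differed at an adjusted p under 0.05, and the smallest adjusted p was 0.565. At an unadjusted p under 0.05 there were 272 regions (5.0%), 131 higher and 141 lower at ZT4. The fit has 1 residual degree of freedom, and its median standard error was 0.18 on the log2 scale.

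The differences were not correlated between the 2 photoperiods. The SD over regions of the difference, ZT4 minus ZT0, was 0.26 in LD and 0.29 in SD, and Pearson's r between the photoperiods was -0.001 over the 5445 regions (Spearman's rho 0.000). In 1357 regions (24.9%) the difference was above 0 in both photoperiods and in 1369 (25.1%) below 0 in both. Among the 633 regions that also passed q under 0.01 in at least 1 list, r was 0.078, with 103 (16.3%) above 0 in both and 236 (37.3%) below 0 in both. The long q list of SD ZT0 chose many of these 633, so their direction is partly set by that choice. Regions that share a library are not independent, and no p is given.

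**Figure D5:**
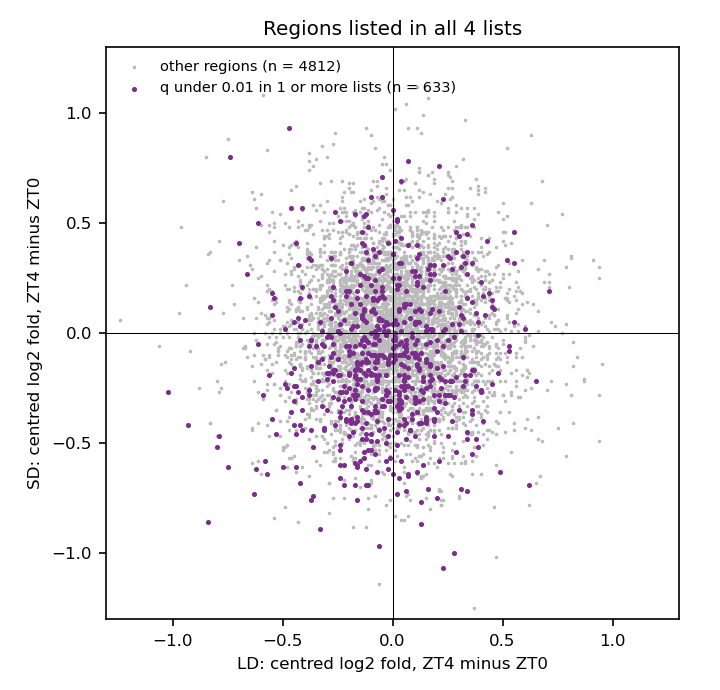
Difference in centred log2 fold enrichment, ZT4 minus ZT0, in LD (x axis) and SD (y axis) for the 5445 regions in all 4 lists; each point is a region, purple where q was under 0.01 in at least 1 list (633). The cloud is round (r of -0.001), and the purple points lie mostly below 0 in SD.

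The regions named next were taken from the 633 with q under 0.01 in at least 1 list. The ZT0 lists at that q are the longer, and a region could enter through the time at which it was high, so sizes in the 2 directions cannot be ranked from this choice. Over all 5445 shared regions the mean centred log2 difference ran between -0.85 and 0.77. The lowest, and the first toward ZT0, was on chromosome 2 at 23385735 to 23386648, overlapping an end of the protein-coding gene LOC100835635, with folds of 2.52 in LD and 2.10 in SD at ZT4, against 4.62 in LD and 4.04 in SD at ZT0. The centred log2 difference was -0.85 ± 0.18 (SE), with an adjusted p of 0.565 in limma. Without centring, this region passed, at -0.91 ± 0.20 (SE) and an adjusted p of 0.0181 in limma, and was the only one to do so. Both ZT0 folds lay above both ZT4 folds at this locus, which was picked for its large difference. The log2 difference was of like size in both fits. Without centring, limma's prior degrees of freedom, its weight on the variance shared over regions, were infinite, against 19.5 in the centred fit. The call was limited to that setting.

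The second, at the end of LOC100823873 on chromosome 2, had 2.69 in LD and 2.49 in SD at ZT4, against 4.25 in LD and 4.39 in SD at ZT0. The third lay on chromosome 3 at 13803959 to 13804876, 1076 bp from LOC100830331, with 4.04 in LD and 3.62 in SD at ZT4, against 6.94 in LD and 5.87 in SD at ZT0. A neighbouring region 145 bp away, at 13805022 to 13806304, overlapped an end of LOC100830331 and had 4.0 in LD and 3.77 in SD at ZT4, against 5.44 in LD and 5.43 in SD at ZT0. Both regions passed q under 0.01 in both ZT0 lists and in no ZT4 list. The fourth, on chromosome 5 at 18210994 to 18211580, had no gene within 2 kb, with 2.35 in LD and 2.6 in SD at ZT4, against 4.58 in LD and 3.7 in SD at ZT0. The fifth overlapped an end of LOC100828522 on chromosome 4. The log2 differences of these last 2 were -0.67 and -0.66. In limma the adjusted p of the second to the fifth was 0.686 each.

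Toward ZT4, the first of the same 633 was on chromosome 1 at 53912685 to 53912960, 15 bp from LOC100829061, with 4.76 in LD and 5.67 in SD at ZT4, against 3.33 in LD and 4.39 in SD at ZT0. Its log2 difference was 0.50 ± 0.18 (SE), with an adjusted p of 0.769 in limma. A region at LOC100827904 and the long non-coding RNA gene LOC112271979 had 3.58 in LD and 4.35 in SD at ZT4, against 3.16 in LD and 2.74 in SD at ZT0. The other 3, at LOC100822269, LOC100829839 and LOC100839098, had differences of 0.45, 0.43 and 0.43, and the adjusted p of these 4 in limma was between 0.868 and 0.88. None of the 10 regions named in both directions was past the threshold. Each of them was listed in all 6 other libraries, as were 60.1% of the 5445 regions of all 4 lists.

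Among the regions past q under 0.01 at 1 time only, the strongest at ZT0 lay on chromosome 4 at 41273829 to 41275045, overlapping an end of LOC100823927. It had 4.58 in LD and 4.27 in SD at ZT4, against 6.28 in LD and 6.05 in SD at ZT0. At LOC100828241 on the same chromosome the folds were 3.4 in LD and 3.23 in SD at ZT4, against 5.17 in LD and 5.37 in SD at ZT0. The strongest at ZT4, on chromosome 2 at 13238241 to 13238578, overlapped an end of LOC100826531 and had 5.16 in LD and 5.14 in SD at ZT4, against 4.11 in LD and 4.39 in SD at ZT0. Of the 8 ZT4 regions, 7 had a summit no farther than 500 bp from an end of a protein-coding gene, and of the 61 ZT0 regions, 45 did. In the LL list at ZT0, 6 of the 8 and 41 of the 61 passed q under 0.01, and all of them had a deposited peak. By comparison, 60.3% of the 5445 regions of all 4 lists had a summit that near to an end, and 94.3% had a deposited peak in LL. Of all 16458 LL peaks, 526 passed q under 0.01.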

How the data were processed

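ChIP-seq peak lists of ELF3_OX seedlings at ZT4 and ZT0 in LD and SD were compared, with 6 further lists read at their regions. As the study's methods state, bwa alignment to a Brachypodium reference was followed by MACS2 peak calls, which the authors made for each library. The submitters' processing notes name Trimmomatic, Bowtie2, Picard, deepTools and MACS2 and an Arabidopsis build, whereas the lists use Brachypodium chromosome names. The deposited values are the fold enrichment (a ratio), the −log10 p and the −log10 q, with a score equal to 10 times −log10 p without its decimals. The lists reach down to p of 0.1, without the study's q filter, and between 70.4% and 82.6% of the peaks of the 4 lists had a q of 1, so weak peaks dominate them. Depth is unknown.

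Deposited peaks of the 4 lists were merged by an overlap of at least 1 bp, 3 of these peaks on scaffolds. Genes came from the RefSeq table of assembly Brachypodium_distachyon_v3.0, and only coordinates of deposited peaks, counted from 1, are printed. The 30 gene identifiers tried from the study had 0 matches, the table gives no products, and no sequence or strand was used here, so the planned clock, light and flowering lists and the promoter motifs were not run. Named families came from symbols in the table. Shared regions were tested with limma 3.58.1 in R 4.3.3 on log2 folds. Other steps ran in Python 3.11.15 with pandas 2.3.3, numpy 2.4.6, matplotlib 3.10.9 and scipy 1.17.1, and the functions were tested on simulated data. The regions named were the 10 with the highest lower fold of each class and the 5 with the largest shared shift in each direction among shared regions with q under 0.01 in at least 1 list. The genes named were up to 4 per class and gene list. Transfer RNA genes share symbols and were counted only. Other CBF genes, further snoRNA genes such as LOC112271211, MADS2, MPK3, MPK6, SWN5, VRT-2 and the regions past q under 0.01 were named after their values were seen. The members and lists were chosen with earlier results of these data known. Alternatives were other thresholds, equal list lengths, other overlap and gene rules, other scalings, the fit without the block and omission of each list.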

Additional observations from a re-analysis of the deposited data

How the results depend on the processing

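Counts of regions and genes of 1 time only depended on the peaks used. At q under 0.01 there were 8 ZT4-only and 61 ZT0-only regions, with 9 and 80 genes. At p under 0.001 the regions numbered 105 and 314 and the genes 124 and 338. With the 5000 strongest peaks of each list the regions were 307 and 335 and the genes 318 and 316, so the excess of ZT0-only genes was gone. With 217 peaks in each list, an alternative added after seeing the data, the regions were 22 and 17. With 13666 peaks in each list, also added later, they were 803 and 922. Requiring q under 0.01 at one time and no deposited peak at the other left 0 and 2. Other overlap rules, other gene rules and the omission of chromosome ends kept all counts within 1.5 times. Leaving out 1 list, so that a single list stood for its time, gave 1524 to 4061 ZT4-only and 2006 to 4719 ZT0-only regions, and 1252 to 1766 and 1628 to 2156 genes. Of the 10 named ZT0-only regions, 10 remained in their class at p under 0.001 and 2 at q under 0.01, and of the 10 named ZT4-only regions, 5 and 0. The ratio of list lengths kept its sign in every alternative, with -0.15 to -0.03 when 1 list was left out. The share of ZT0-only minus ZT4-only regions listed in LL, 8.05 points, was 1.49 with LL peaks at p under 0.001 and 0.847 for the stronger regions. Of the 61 and 8 regions at q under 0.01, 2 and 0 belonged to the classes built from deposited peaks.

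The photoperiods paired the lists by design, and their differences were uncorrelated. Without the replicate block limma called 0 of the shared regions (smallest adjusted p 0.259, 272 at an unadjusted p under 0.05). It called 1 without centring (adjusted p 0.0181, at LOC100835635). Leaving out single lists gave 0 to 1. The 1 came without the LD list of ZT4, with an adjusted p of 0.0356, at a region on chromosome 1 from 20047619 to 20048319 with no gene within 2 kb. There the only ZT4 value left was 1.53 in SD, and the LD value left out was 3.07, against 3.28 in LD and 3.60 in SD at ZT0. The lone ZT4 list is there assumed to vary like the others. The 10 named shared regions kept their direction in 80 of 80 alternative values. They were chosen for a large difference of the same sign in both photoperiods, and the alternatives reuse the same lists. Their direction was therefore largely set by the choice. Because depth is unknown, absence from a list does not show absence of binding.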
